A study of Homo sapiens with 8 samples.

Results

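Guidance cues are secreted or surface proteins that steer axons and migrating cells, and the genes of the ephrin, semaphorin, netrin and slit systems were followed here through the first step of cardiac differentiation and an exposure to dioxin. The families and the gene lists used below were chosen with earlier results of these data known. Members were then taken by gene symbol from the deposited count tables. They were every Eph receptor, ephrin, semaphorin of classes 3 to 7, plexin, neuropilin, netrin, netrin-G, UNC5 receptor, slit and ROBO receptor there. There were 70 of them among 27317 symbols, namely 14 Eph receptors, 8 ephrins, 20 semaphorins, 9 plexins, 2 neuropilins, 6 netrins and netrin-Gs, 4 UNC5 receptors, 3 slits and 4 ROBO receptors. A filter on low counts left 66 of the 70 for testing. The other 4 were EPHA5, NTN5, ROBO4 and UNC5C, which had at most 4, 10, 5 and 8 counts in any library.

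All cells came from MEL1, 1 established line of human embryonic stem cells (ESCs). RNA sequencing libraries fell into 4 groups of 2. Cells of the group TCDD D2 had received, as ESCs, 2 nM of TCDD (2,3,7,8-tetrachlorodibenzodioxin), a ligand of the aryl hydrocarbon receptor (AHR), and were collected 2 days after differentiation began with 5 µM CHIR99021, an inhibitor of the kinase GSK3 that activates Wnt signalling. The group DMSO D2 had an equal volume of the solvent DMSO and the same differentiation. The groups TCDD D1 and DMSO D1 had the same exposures and were collected immediately before differentiation. The series set out to find genes that differ after such an exposure in ESCs and in mesoderm. How long the exposure lasted, and whether TCDD was still present during differentiation, is not stated in the labels. Nor is it stated whether replicates were separate cultures, so the p-values measure only the spread between these libraries, which may be technical.

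Ephrins are ligands fixed to the cell surface, A ephrins by a lipid anchor and B ephrins by a transmembrane segment. They signal on contact to Eph receptors, which are tyrosine kinases, and separate neighbouring cell groups, as at somite boundaries and between arteries and veins. Semaphorins are secreted in class 3 and membrane-bound in the other vertebrate classes. They act through plexins, and most class 3 members also need a neuropilin. Netrins are secreted relatives of laminin that attract cells through DCC and neogenin and repel them through UNC5 receptors. Slits are secreted and mostly repel cells through ROBO receptors. Outside the nervous system these families take part in vessel growth, in the division of the cardiac outflow tract and in the movement of mesoderm.

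The 8 libraries held 34873055 to 43770420 counts each, of which the guidance genes took 0.252% to 0.262% in TCDD D2, 0.265% in both libraries of DMSO D2, 0.289% to 0.317% in TCDD D1 and 0.312% to 0.324% in DMSO D1. Levels are given in CPM, edgeR's counts relative to library totals after TMM scaling. Exons of 19 members overlap another gene in the GENCODE annotation. Among those described below these are EFNA3, EFNA4, EFNB2, EPHA4, NRP1, NRP2, PLXNA3, PLXNB3, SEMA6A, SLIT1, SLIT3 and UNC5A. The strand setting of the counting is not stated, so reads of such pairs cannot be told apart and those levels are uncertain. CYP1A1, the standard AHR target, stood at 2.56 and 1.82 CPM in TCDD D2 against 0.464 and 0.292 CPM in DMSO D2, and at 101 and 77.7 CPM in TCDD D1 against 0.761 and 0.813 CPM in DMSO D1. The summed level of 8 genes of the primitive streak and early mesoderm (among them T, MIXL1 and EOMES) was 311 to 349.7 CPM in TCDD D2, 638 to 679 CPM in DMSO D2, 11.9 to 12.6 CPM in TCDD D1 and 12.3 to 12.6 CPM in DMSO D1. Pluripotency genes (7, among them POU5F1 and NANOG) summed to 4339 to 4368 CPM in TCDD D2, 3986 to 4059 CPM in DMSO D2, 4624 to 4648 CPM in TCDD D1 and 4658 to 4729 CPM in DMSO D1. Of 6 endothelial markers, PECAM1 and CDH5 had at most 0.110 CPM in any library, but the 6 together summed to 12.4 to 25 CPM. Of 7 fibroblast markers, DCN and LUM had at most 0.0551 CPM, but the 7 together summed to 298 to 929 CPM. A gene was called changed at a Benjamini-Hochberg adjusted p under 0.05 in edgeR's quasi-likelihood F test, fitted to all 17268 genes past the filter.

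At D2, 6 of the 66 tested guidance genes differed between TCDD and DMSO, where 2.95% of all genes did. Higher with TCDD were EFNB2, SEMA3C, NTN1 and SEMA6B, all 4 of them ligands, and lower were EPHA2 and PLXND1, both receptors. That is 6.06% of the tested members called higher and 3.03% called lower, beside 1.41% and 1.54% of all genes. The median log2 fold change was -0.02 over the 66 and 0.00 over all genes. By class of ligand it was 0.09 for ephrins, 0.01 for semaphorins, -0.19 for netrins and netrin-Gs and -0.32 for slits. By class of receptor it was 0.02 (Eph), -0.05 (plexins), -0.31 (neuropilins), -0.01 (ROBO) and 0.14 (UNC5). Whole classes thus did not follow the split of the 6 called genes into higher ligands and lower receptors. No called member differed as much as 2-fold. In bulk RNA such a difference can lie in the share of cells that express a gene or in the RNA per cell, and these cannot be told apart.

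EFNB2 encodes ephrin-B2, the B ephrin known from arterial endothelium and somites. It stood at 60.4 and 58.1 CPM in TCDD D2 against 43.6 and 39.7 CPM in DMSO D2, so that both TCDD libraries lay above both DMSO libraries. The log2 fold change was 0.51 ± 0.07 (SE, edgeR adjusted p = 0.000104), a 1.42-fold higher level. This call held in all 16 alternative analyses (adjusted p 1.9e-13 to 0.00787). All of these analyses reused the same libraries, and only those that left out a D2 library changed the libraries compared here. The exons of EFNB2 overlap an antisense gene.

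SEMA3C, a secreted semaphorin known for guiding neural crest cells into the cardiac outflow tract in mice, had 27.8 and 29.9 CPM in TCDD D2 and 19.5 and 21.4 CPM in DMSO D2. The groups did not overlap, with 0.50 ± 0.07 as the log2 fold change (edgeR adjusted p = 0.000382). This second ligand also kept its call in all 16 alternatives (adjusted p 2.11e-08 to 0.0274).

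NTN1 encodes netrin-1, the founding secreted netrin. Its level was 36.9 and 41.7 CPM in TCDD D2 against 28.6 and 31.3 CPM in DMSO D2, again with no overlap (log2 fold change 0.39 ± 0.08, edgeR adjusted p = 0.013). Leaving out DMSO D2 replicate 1 or TCDD D2 replicate 2 ended this call (adjusted p 2.37e-06 to 0.26 over the 16 alternatives). SEMA6B, a transmembrane semaphorin that binds class A plexins, had 48.4 and 52.9 CPM in TCDD D2 and 42 and 41.3 CPM in DMSO D2. The TCDD libraries were both the higher ones, and the log2 fold change was 0.28 ± 0.06 (edgeR adjusted p = 0.0141). The SEMA6B call was lost without DMSO D2 replicate 1, without DMSO D2 replicate 2 and without TCDD D2 replicate 2 (adjusted p 0.000137 to 0.246).

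Of the receptors, EPHA2 encodes a receptor of A ephrins found in many epithelia. It had 59.6 and 67.3 CPM in TCDD D2 against 77.5 and 81.6 CPM in DMSO D2. Both TCDD libraries lay below both DMSO libraries, and the log2 fold change was -0.33 ± 0.06 (edgeR adjusted p = 0.00187). The call ended without DMSO D2 replicate 2 and without TCDD D2 replicate 1 (adjusted p 4.99e-07 to 0.0622 over the alternatives). PLXND1 encodes plexin D1, a receptor known from endothelial cells that binds SEMA3E directly and SEMA3C together with a neuropilin. Its values were 54 and 60.2 CPM in TCDD D2 and 73.4 and 74.1 CPM in DMSO D2, without overlap (log2 fold change -0.37 ± 0.08, edgeR adjusted p = 0.00966). It was not called with robust dispersion estimates, nor without DMSO D2 replicate 1, DMSO D2 replicate 2 or TCDD D2 replicate 1 (adjusted p 2.66e-09 to 0.154).

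**Figure D1:**
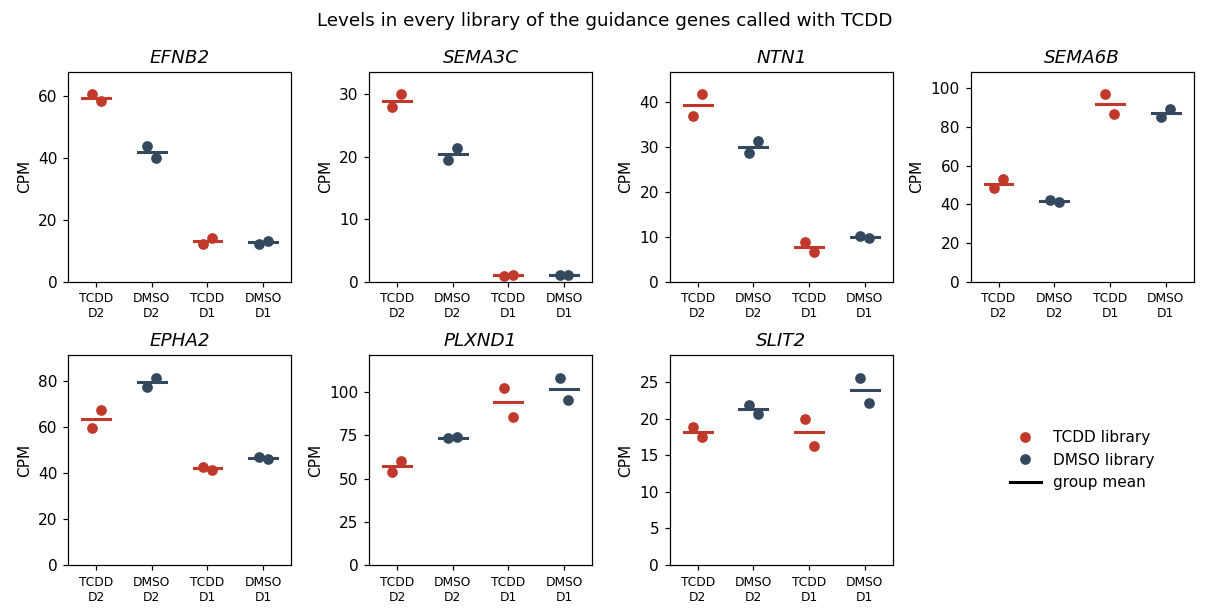
Level in each library (CPM, linear axis from 0) of the 7 guidance genes called between TCDD and DMSO at D1 or D2, with groups in the order TCDD D2, DMSO D2, TCDD D1 and DMSO D1, points for libraries and a bar for the mean of 2. EFNB2, SEMA3C, NTN1 and SEMA6B lie higher in TCDD D2 than in DMSO D2, EPHA2 and PLXND1 lie lower, and SLIT2 is lower in TCDD D1 than in DMSO D1.

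Promoter sequences are shown for 4 of the 6 genes called at D2, those with an entry in RefSeq's table for GRCh38.p14, to display the bases next to the starts of genes that differed with TCDD. NTN1 and SEMA6B had none, and of the 2 windows of SEMA3C the one listed first is shown. Each window is 300 bases long, 250 before to 50 after the annotated start, and reads 5′ to 3′ on the gene's strand. Capitals mark the letters GCGTG, the core of the AHR binding site, or its reverse complement CACGC.

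EFNB2 (chr13:106535613-106535912, minus strand): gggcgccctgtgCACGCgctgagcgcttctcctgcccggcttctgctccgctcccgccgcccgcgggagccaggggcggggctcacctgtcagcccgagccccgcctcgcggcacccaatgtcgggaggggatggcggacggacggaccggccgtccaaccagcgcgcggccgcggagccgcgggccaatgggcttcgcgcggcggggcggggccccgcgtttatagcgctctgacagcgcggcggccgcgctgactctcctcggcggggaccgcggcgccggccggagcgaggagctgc

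SEMA3C (chr7:80922340-80922639, minus strand): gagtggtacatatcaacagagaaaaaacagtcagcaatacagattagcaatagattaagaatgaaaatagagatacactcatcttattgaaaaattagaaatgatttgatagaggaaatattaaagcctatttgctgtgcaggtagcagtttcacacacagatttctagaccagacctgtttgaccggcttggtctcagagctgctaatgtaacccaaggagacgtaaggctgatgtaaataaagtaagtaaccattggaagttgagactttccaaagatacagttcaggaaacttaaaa

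EPHA2 (chr1:16156020-16156319, minus strand): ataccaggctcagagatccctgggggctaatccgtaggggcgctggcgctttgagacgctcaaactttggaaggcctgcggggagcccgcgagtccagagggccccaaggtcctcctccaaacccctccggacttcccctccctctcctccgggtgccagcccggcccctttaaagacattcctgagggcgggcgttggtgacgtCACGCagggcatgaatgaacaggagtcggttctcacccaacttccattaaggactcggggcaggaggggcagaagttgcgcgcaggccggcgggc

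PLXND1 (chr3:129606627-129606926, minus strand): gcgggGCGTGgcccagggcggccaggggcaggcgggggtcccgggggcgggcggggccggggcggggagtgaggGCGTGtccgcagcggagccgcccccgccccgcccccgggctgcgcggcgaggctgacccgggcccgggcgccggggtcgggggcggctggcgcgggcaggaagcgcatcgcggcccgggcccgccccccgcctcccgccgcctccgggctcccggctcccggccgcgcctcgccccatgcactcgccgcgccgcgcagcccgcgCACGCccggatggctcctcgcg

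The EFNB2 window held 1 such core, that of EPHA2 1 and that of PLXND1 3, on either strand. The SEMA3C window shown held 0, as did its second window at chr7:80919002-80919301. The window of SLIT2 (chr4:20251655-20251954, plus strand), the gene called at D1, held 1. Among all 35116 windows of the table, 36.5% held the core, as did 39 of 93 windows of 59 guidance genes (41.9%). CTTTG or CAAAG, the core of the TCF site through which Wnt signals reach DNA, was in 47.5% of all windows and in 38 of the 93 (40.9%). These counts describe letters in a short window and say nothing of binding.

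Marker levels of other cell states were read from the same libraries. The streak and mesoderm sum was lower in TCDD D2 than in DMSO D2, with 6 of 8 tested markers called lower. The sum of 6 endoderm markers was 29 to 32 CPM in TCDD D2 against 45.6 to 48.8 CPM in DMSO D2, with 1 of 4 tested (CER1) called lower and SOX17 and FOXA1 below the filter. Neural markers (8, of which SOX1, NEUROD1 and POU3F2 were below the filter) summed to 95.6 to 105 CPM in TCDD D2 against 85.7 to 90.7 CPM in DMSO D2, with 0 of 5 called. The fibroblast sum of 7 genes was 353 to 355 CPM in TCDD D2 and 298 to 315 CPM in DMSO D2, with 1 of 4 tested (COL1A1) called higher and COL3A1, DCN and LUM below the filter. The endothelial sum of 6 genes was 12.4 to 12.7 CPM in TCDD D2 and 13.6 to 14.4 CPM in DMSO D2, with 0 of 4 tested called and PECAM1 and CDH5 below the filter and at or near 0. The part of these cell states in the guidance differences was not tested.

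The other 60 tested members were not called at D2 between TCDD and DMSO. Their log2 fold changes ran from -0.51 for NRP1 to 0.89 for PLXNA4, and 47 of the 60 lay within 0.25 of 0. PLXNA4, a plexin that binds class 6 semaphorins, had 1.31 and 1.38 CPM in TCDD D2 and 0.628 and 0.803 CPM in DMSO D2. Its groups did not overlap, but at these low levels the interval of 2 SE ran from 0.37 to 1.41 on the log2 scale and the edgeR adjusted p was 0.0841. Among the partners of the 6 called genes, EPHB4, the main receptor of ephrin-B2 in vessels, had 155 and 168 CPM in TCDD D2 and 154 and 151 CPM in DMSO D2 (log2 fold change 0.08 ± 0.05, edgeR adjusted p = 0.488). The A ephrins that bind EPHA2 had log2 fold changes of -0.05 (EFNA3) to 0.18 (EFNA5), with 0 of 5 called. The UNC5 receptors of netrin-1 were at 0.29 (UNC5A), 0.11 (UNC5B) and 0.14 (UNC5D), and none was called.

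**Figure D2:**
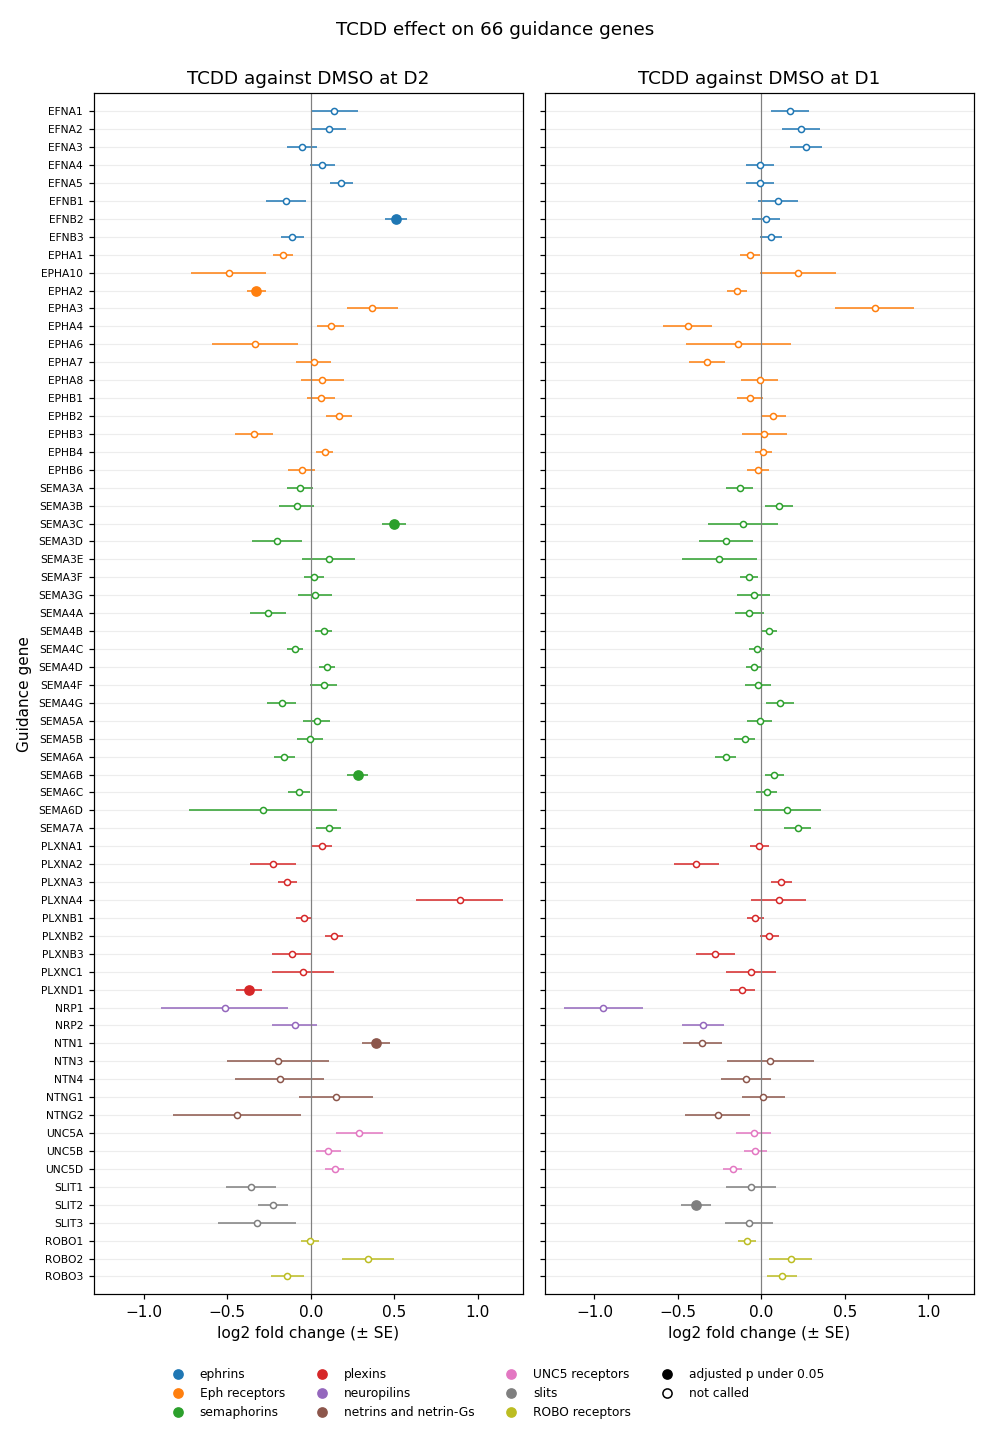
Log2 fold change of TCDD over DMSO for each of the 66 tested guidance genes at D2 and at D1, with bars of ± SE from the edgeR fit. Points are coloured by class and filled for called genes. Most points lie near 0 at both times, and the called genes are EFNB2, SEMA3C, NTN1, SEMA6B, EPHA2 and PLXND1 at D2 and SLIT2 at D1.

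Before differentiation, at D1, 1 of 66 tested guidance genes differed between TCDD and DMSO, namely SLIT2, which was lower. That is 1.52% of the members, beside 1.2% of all genes called (0.764% higher and 0.434% lower), so the share is near that of all genes. SLIT2 encodes a secreted repellent that binds ROBO1 and ROBO2. It had 19.9 and 16.3 CPM in TCDD D1 against 25.6 and 22.1 CPM in DMSO D1. The TCDD libraries lay below both DMSO libraries, and the log2 fold change was -0.39 ± 0.09 (SE, edgeR adjusted p = 0.0364). This call held in 9 of 16 alternatives (adjusted p 3.08e-05 to 0.589). It was lost when only the D1 libraries were fitted, and without DMSO D1 replicate 1, TCDD D1 replicate 2 or any single D2 library. At D2, SLIT2 stood at 18.8 and 17.5 CPM in TCDD D2 and 21.9 and 20.7 CPM in DMSO D2 and was not called (log2 fold change -0.22 ± 0.09, edgeR adjusted p = 0.252).

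The remaining 65 members at D1 ran from a log2 fold change of -0.95 for NRP1 to 0.68 for EPHA3, and 54 of them lay within 0.25 of 0. NRP1, a neuropilin that serves class 3 semaphorins and the growth factor VEGF, had 0.793 and 0.826 CPM in TCDD D1 and 1.6 and 1.53 CPM in DMSO D1. Its groups did not overlap, yet the edgeR adjusted p was 0.0607 with 2 SE bounds of -1.42 to -0.48. The other neuropilin, NRP2, had 9.12 and 6.74 CPM in TCDD D1 and 11.2 and 9.15 CPM in DMSO D1, so that its groups came close without overlapping (-0.35 ± 0.12 on the log2 scale, edgeR adjusted p = 0.282). EPHA3, an A-class receptor, stood at 1.82 and 1.4 CPM in TCDD D1 and 1.04 and 0.991 CPM in DMSO D1 (edgeR adjusted p = 0.263). Of the genes called at D2, EFNB2 and SEMA3C gave log2 fold changes of 0.03 ± 0.08 and -0.11 ± 0.21 at D1. EPHA2 was lower with TCDD at D1 too, by -0.15 ± 0.06, but was not called (edgeR adjusted p = 0.368). It had 42.6 and 41.5 CPM in TCDD D1 and 47.2 and 46.1 CPM in DMSO D1, without overlap. None of the members called at D2 was called at D1.

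Whether the TCDD effect itself differed between D2 and D1 was tested as the difference of both effects. Of the 66 members, 2 were called, NTN1 and EFNB2, both with a larger value at D2, where 0.77% of all genes were called (0.492% with a larger and 0.278% with a smaller value at D2). For NTN1 the log2 fold change was 0.39 ± 0.08 at D2 and -0.35 ± 0.11 at D1, and the difference was 0.74 ± 0.14 (edgeR adjusted p = 0.017). NTN1 had 8.82 and 6.66 CPM in TCDD D1 and 10.1 and 9.79 CPM in DMSO D1, so the TCDD libraries were the higher ones at D2 and the lower ones at D1, where the gene was not called (edgeR adjusted p = 0.208). The effects on EFNB2 were 0.51 ± 0.07 at D2 and 0.03 ± 0.08 at D1, a difference of 0.48 ± 0.11 (edgeR adjusted p = 0.0431). At D1 its libraries interleaved, with 12.1 and 14 CPM in TCDD D1 and 12.3 and 13.3 CPM in DMSO D1. Both calls depended on single libraries. The NTN1 difference held in 10 of 15 alternatives (adjusted p 1.12e-07 to 0.112) and was lost without DMSO D1 replicate 1, DMSO D1 replicate 2, DMSO D2 replicate 1, TCDD D1 replicate 2 or TCDD D2 replicate 2. The EFNB2 difference held in 7 of 15 (adjusted p 0.000479 to 0.22) and was lost without composition scaling and without any single library other than TCDD D1 replicate 2. For the other 64 members the difference ran from -0.71 (EPHA10) to 0.79 (PLXNA4), and SEMA3C, at 0.61 ± 0.22, was not called (edgeR adjusted p = 0.311).

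Far more guidance genes differed between D2 and D1 than between TCDD and DMSO. With TCDD, 48 of 66 tested members differed between D2 and D1, 15 higher and 33 lower at D2, where 65.3% of all genes differed (33.1% higher, 32.2% lower). With DMSO, 50 members differed, 15 higher and 35 lower, beside 63.2% of all genes (32.5% higher, 30.7% lower). The share of members called lower was thus 50% with TCDD and 53.0% with DMSO, and the share called higher was 22.7% in both. The median log2 fold change of the members was -0.21 with TCDD, against 0.00 over all genes, and -0.28 with DMSO, against 0.01 over all genes. Without composition scaling, which lowers the median of all genes by about 0.1, 14 members were higher and 37 lower with TCDD, beside 4183 and 6996 of all genes, and 15 were higher and 39 lower with DMSO, beside 4381 and 6419. With TMM scaling those counts over all genes were 5709 and 5560 with TCDD and 5617 and 5296 with DMSO, so the split of higher and lower genes depends on the scaling. In each exposure 7 members were at least 2-fold higher and 13 at least 2-fold lower at D2 among those called. Over all 17268 genes, 661 were at least 2-fold higher and 1819 at least 2-fold lower with TCDD. With DMSO these counts were 690 and 1648, so falls of this size outnumbered rises over all genes too. Time in culture, the change of medium, the inhibitor and any batch of preparation cannot be told apart in this comparison. Both comparisons gave 46 members in common, 95.8% of the calls with TCDD and 92% of those with DMSO, and all 46 had the same direction. The same overlap was not counted over all genes, where 65.3% were called with TCDD and 63.2% with DMSO. These shares therefore cannot be set against a background. The comparisons have no library in common, but both come from 1 fit with a shared estimate of the spread.

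Marker levels of other cell states moved in the same comparison. The endoderm sum was 29 to 32 CPM in TCDD D2 against 1.54 to 2.05 CPM in TCDD D1, and 45.6 to 48.8 CPM in DMSO D2 against 1.78 to 3.98 CPM in DMSO D1, with all 4 tested markers called higher in both exposures. The fibroblast sum was 353 to 355 CPM in TCDD D2 against 848 to 929 CPM in TCDD D1, and 298 to 315 CPM in DMSO D2 against 834 to 877 CPM in DMSO D1, with 2 of 4 tested markers higher and 2 (COL1A1 and THY1) lower in both and DCN and LUM at or near 0. The endothelial sum was 12.4 to 12.7 CPM in TCDD D2 against 13.7 to 19.3 CPM in TCDD D1, and 13.6 to 14.4 CPM in DMSO D2 against 17.4 to 25 CPM in DMSO D1, with 3 of 4 tested markers lower in both. The neural sum was 95.6 to 105 CPM in TCDD D2 against 70.2 to 80.3 CPM in TCDD D1, and 85.7 to 90.7 CPM in DMSO D2 against 75.7 to 80.1 CPM in DMSO D1, with 2 of 5 tested markers higher with TCDD and 1 higher and 1 lower with DMSO. Streak and pluripotency sums of the same libraries are given above. The part of these cell states in the changes of guidance genes was not tested.

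**Figure D3:**
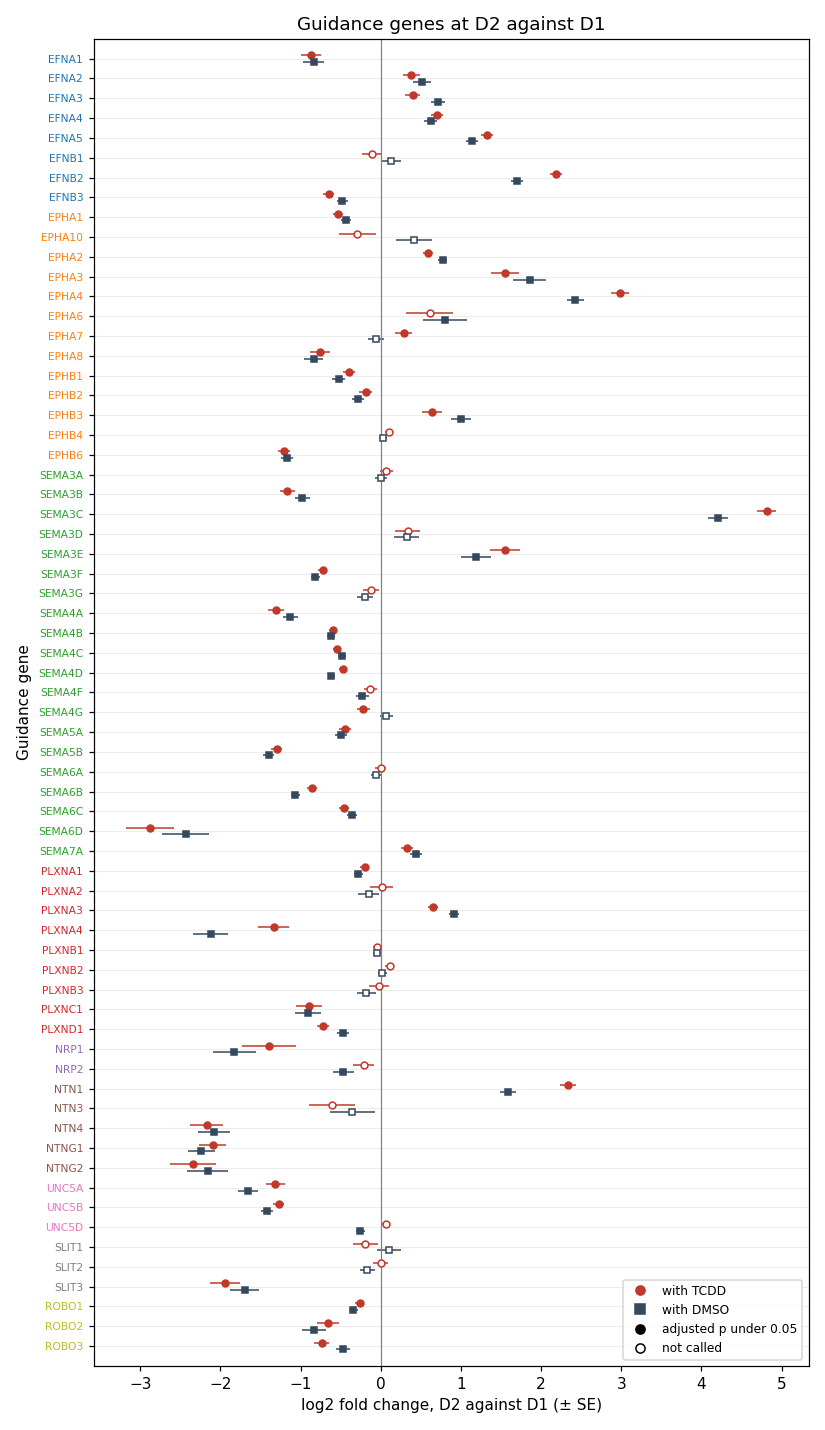
Log2 fold change of D2 over D1 for the 66 tested guidance genes with TCDD and with DMSO, with bars of ± SE from the edgeR fit and gene names coloured by class. SEMA3C, EPHA4, EFNB2 and NTN1 lie at the high end, and SEMA6D, NTNG1, NTNG2 and NTN4 at the low end.

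Among the ephrins, 5 of 8 rose (62.5%) and 2 fell (25%) at D2 in both exposures, beside 33.1% of all genes higher and 32.2% lower with TCDD and 32.5% and 30.7% with DMSO. These are counts of small classes, and no difference between a class and all genes was tested. EFNB2 rose to 60.4 and 58.1 CPM in TCDD D2, against 12.1 and 14 CPM in TCDD D1, a 4.55-fold higher level (log2 fold change 2.19 ± 0.07, edgeR adjusted p = 3.45e-14). In DMSO D2 it reached 43.6 and 39.7 CPM, against 12.3 and 13.3 CPM in DMSO D1 (log2 fold change 1.71 ± 0.08, edgeR adjusted p = 1.56e-12). The 4 libraries of D2 all lay well above the 4 of D1. EFNA5, an A ephrin known for mapping retinal axons, rose by 1.33 on the log2 scale with TCDD and 1.14 with DMSO, to 26.4 and 24.1 CPM in TCDD D2 and 21.8 and 22.8 CPM in DMSO D2. Its D1 values were 9.99 and 10.2 CPM in TCDD D1 and 10 and 10.2 CPM in DMSO D1. EFNA4 rose by 0.70 with TCDD and 0.62 with DMSO. EFNA2 and EFNA3 were also called higher in both, EFNA1 and EFNB3 lower in both, and EFNB1 in neither. The EFNA2 call with TCDD was lost without TCDD D2 replicate 2 (adjusted p 0.00064 to 0.0794 over the alternatives).

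Of 13 tested Eph receptors, 5 were called higher (38.5%) and 5 lower (38.5%) at D2 in each exposure, shares near those of all genes. EPHA4, a receptor that binds ephrins of both classes and acts at somite borders, had 16.1 and 17.4 CPM in TCDD D2 against 2.01 and 2.23 CPM in TCDD D1, a 7.93-fold rise (log2 fold change 2.99 ± 0.11, edgeR adjusted p = 1.3e-13). With DMSO it had 14.8 and 16.1 CPM at D2 against 2.97 and 2.77 CPM at D1 (2.43 ± 0.11, edgeR adjusted p = 1.27e-12). The receptor was thus low in undifferentiated cells and high in all 4 libraries of D2. EPHA3 rose by 1.55 with TCDD and 1.86 with DMSO, and EPHB3, a receptor of B ephrins, by 0.64 with TCDD and 1.00 with DMSO, both at low levels. EPHA2 was also higher at D2, by 0.59 with TCDD and 0.77 with DMSO. EPHA6 was called with DMSO alone (0.81 ± 0.28, edgeR adjusted p = 0.0167) and EPHA7 with TCDD alone (0.28 ± 0.11, edgeR adjusted p = 0.0253), both higher at D2. No difference between the exposures was called for either (edgeR adjusted p = 0.912 for EPHA6 and 0.419 for EPHA7). The EPHA7 call was lost without composition scaling, with DESeq2, without TCDD D1 replicate 2 and without TCDD D2 replicate 1 (adjusted p 0.0101 to 0.192). The EPHA6 call was lost with DESeq2, without DMSO D1 replicate 1 and without DMSO D2 replicate 2 (adjusted p 0.00167 to 0.205). EPHA1, the A receptor with the most counts, fell by 0.54 on the log2 scale with TCDD and by 0.44 with DMSO. EPHB6, which lacks kinase activity, fell by 1.20 with TCDD and 1.17 with DMSO. EPHB4 was called in neither, with 0.10 ± 0.05 with TCDD and 0.03 ± 0.05 with DMSO.

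Of 20 semaphorins, 3 were called higher (15%) and 12 lower (60%) at D2 in each exposure, where 33.1% of all genes were higher and 32.2% lower with TCDD and 32.5% and 30.7% with DMSO. Without composition scaling 3 were higher and 13 lower with TCDD, beside 24.2% and 40.5% of all genes, and 3 higher and 14 lower with DMSO, beside 25.4% and 37.2%. The exception with the highest fold of any member was SEMA3C, which had 27.8 and 29.9 CPM in TCDD D2 against 0.957 and 1.1 CPM in TCDD D1, a 28.1-fold rise (log2 fold change 4.81 ± 0.12, edgeR adjusted p = 3.34e-16). With DMSO it had 19.5 and 21.4 CPM at D2 against 1.14 and 1.07 CPM at D1, an 18.5-fold rise (4.21 ± 0.12, edgeR adjusted p = 3.09e-15). SEMA3C was near 1 CPM in every D1 library. SEMA3E, the ligand of plexin D1, rose by 1.55 with TCDD and 1.19 with DMSO, to 3.3 and 3.77 CPM in TCDD D2 and 3.39 and 3.16 CPM in DMSO D2. The third was SEMA7A, the semaphorin with a lipid anchor, at 0.33 with TCDD and 0.44 with DMSO.

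The falls among semaphorins covered classes 3 to 6. SEMA6D fell to 0.285 and 0.193 CPM in TCDD D2, against 1.73 and 1.87 CPM in TCDD D1 (-2.87 ± 0.30, edgeR adjusted p = 1.41e-07). In DMSO D2 it had 0.246 and 0.341 CPM, against 1.37 and 1.86 CPM in DMSO D1 (-2.43 ± 0.29, edgeR adjusted p = 9.41e-07). It was a rare transcript at either time. SEMA5B, a transmembrane repellent, had 17.4 and 14.9 CPM in TCDD D2 against 40.8 and 39.2 CPM in TCDD D1, and 16.3 and 16.3 CPM in DMSO D2 against 41.4 and 44.4 CPM in DMSO D1. Its D2 levels were thus well below its D1 levels in both exposures (-1.30 ± 0.07 with TCDD and -1.40 ± 0.07 with DMSO). SEMA4A, known also from immune cells, fell by 1.31 with TCDD and 1.13 with DMSO, SEMA6B by 0.86 with TCDD and 1.06 with DMSO, SEMA3F by 0.72 with TCDD and 0.82 with DMSO, and SEMA4C by 0.55 with TCDD and 0.48 with DMSO. SEMA6B, which was higher in TCDD D2 than in DMSO D2, was lower at D2 than at D1 in both exposures. SEMA3A, SEMA3D, SEMA3G and SEMA6A were called in neither.

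The semaphorin receptors gave 1 plexin higher (11.1%) and 4 lower (44.4%) of 9 at D2 in each exposure. Over all genes, 33.1% were higher and 32.2% lower with TCDD, and 32.5% and 30.7% with DMSO. The class is small and was not tested against all genes. PLXNA3, a receptor of class 3 semaphorins with neuropilins, rose by 0.65 with TCDD and 0.91 with DMSO. PLXND1 fell by 0.72 with TCDD and by 0.47 with DMSO, with 103 and 85.5 CPM in TCDD D1 and 108 and 95.3 CPM in DMSO D1. PLXNA4 fell to 1.31 and 1.38 CPM in TCDD D2, against 3.94 and 2.75 CPM in TCDD D1, and to 0.628 and 0.803 CPM in DMSO D2, against 3.09 and 3.2 CPM in DMSO D1. Its log2 fold changes were -1.33 ± 0.19 with TCDD and -2.12 ± 0.22 with DMSO. PLXNA1 and PLXNC1 also fell in both, and PLXNA2 and the 3 B plexins were called in neither. The PLXNA1 call with TCDD was lost without TCDD D1 replicate 1 or TCDD D2 replicate 1 (adjusted p 7.94e-05 to 0.161). NRP1 fell by 1.40 with TCDD and 1.83 with DMSO, while NRP2 was called with DMSO alone (-0.47 ± 0.13, edgeR adjusted p = 0.00363), a call lost without DMSO D1 replicate 1 (adjusted p 1.07e-05 to 0.0822 over the alternatives). A difference between the exposures was not called for NRP2 (edgeR adjusted p = 0.689).

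In the netrin system, NTN1 rose while netrin-4, both netrin-Gs and the UNC5 receptors UNC5A and UNC5B fell in both exposures. NTN3 was called in neither. Of 5 tested netrins and netrin-Gs, 1 was higher (20%) and 3 lower (60%) at D2 in each exposure. Of 3 tested UNC5 receptors, 2 were lower with TCDD and 3 with DMSO. Over all genes, 33.1% were higher and 32.2% lower with TCDD, and 32.5% and 30.7% with DMSO. These small classes were not tested against all genes. NTN1 had 36.9 and 41.7 CPM in TCDD D2 against 8.82 and 6.66 CPM in TCDD D1, a 5.03-fold rise (log2 fold change 2.33 ± 0.10, edgeR adjusted p = 9.4e-13). With DMSO it had 28.6 and 31.3 CPM at D2 against 10.1 and 9.79 CPM at D1, a 3.01-fold rise (1.59 ± 0.10, edgeR adjusted p = 1.45e-10). All 4 D2 libraries stood above all 4 D1 libraries. NTN4, a netrin of basement membranes, fell by 2.17 with TCDD and 2.08 with DMSO, to under 1 CPM in each D2 library. NTNG1 and NTNG2 encode lipid-anchored netrin-Gs that bind partners at synapses rather than DCC or UNC5. NTNG1 had 1.59 and 1.43 CPM in TCDD D2 against 7.28 and 5.64 CPM in TCDD D1, and 1.31 and 1.41 CPM in DMSO D2 against 7.02 and 5.87 CPM in DMSO D1. The level thus dropped in every library of D2, and NTNG2 did so too (-2.34 ± 0.29 with TCDD, -2.16 ± 0.26 with DMSO). UNC5B, a netrin receptor known from endothelium, had 33.9 and 32.4 CPM in TCDD D2 against 87 and 73.2 CPM in TCDD D1 (-1.27 ± 0.07, edgeR adjusted p = 4.81e-11). With DMSO its values were 30.6 and 31 CPM at D2 against 86.7 and 77.9 CPM at D1 (-1.42 ± 0.07, edgeR adjusted p = 1.24e-11). UNC5A fell by 1.31 with TCDD and 1.65 with DMSO. UNC5D, the UNC5 receptor with the most counts, was called lower with DMSO alone (-0.25 ± 0.06, against 0.06 ± 0.06 with TCDD), and the difference between both exposures missed the threshold (edgeR adjusted p = 0.0872).

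In the slit system SLIT3 fell by 1.95 on the log2 scale with TCDD and by 1.70 with DMSO, and SLIT1 and SLIT2 were called in neither. SLIT3, a slit known for its part in the diaphragm and heart of mice, had 0.997 and 0.715 CPM in TCDD D2 against 3.5 and 3.17 CPM in TCDD D1, and 1.09 and 1.07 CPM in DMSO D2 against 3.65 and 3.38 CPM in DMSO D1. All 3 tested ROBO receptors were lower at D2 in both exposures, beside 32.2% of all genes lower with TCDD and 30.7% with DMSO. So small a class was not tested against all genes. ROBO1, the one with the most counts, had 115 and 121 CPM in TCDD D2 against 149 and 133 CPM in TCDD D1 (-0.26 ± 0.05), and 120.3 and 116 CPM in DMSO D2 against 155 and 145 CPM in DMSO D1 (-0.34 ± 0.05). Its groups did not overlap between times, although the fold was small. ROBO2 and ROBO3 gave -0.66 and -0.73 with TCDD and -0.83 and -0.47 with DMSO.

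Partners outside the families were followed in 4 lists. Of 20 semaphorin co-receptors and effectors, 3 were higher with TCDD at D2 and 0 lower, beside 1.41% and 1.54% of all genes. At D1, 0 were higher and 2 lower, beside 0.764% and 0.434% of all genes. The 3 at D2 were DPYSL3, DPYSL2 and MICAL2. DPYSL3 and DPYSL2 encode CRMP proteins, which carry semaphorin signals to microtubules. DPYSL3 had 741 and 756 CPM in TCDD D2 against 487 and 518 CPM in DMSO D2 (0.58 ± 0.06, edgeR adjusted p = 7.91e-06), with no overlap. Its TCDD effect at D2 exceeded that at D1 by 0.51 ± 0.08 (edgeR adjusted p = 0.00602), a call lost without DMSO D2 replicate 1 or TCDD D2 replicate 2 (adjusted p 3.17e-13 to 0.086). DPYSL2 had 126 and 135 CPM in TCDD D2 against 108 and 118 CPM in DMSO D2 (0.21 ± 0.05, edgeR adjusted p = 0.0317, lost without DMSO D2 replicate 1 or TCDD D2 replicate 2, adjusted p 0.003 to 0.504). MICAL2, an enzyme that oxidises actin, had 2.09 and 2.39 CPM in TCDD D2 and 1.31 and 1.29 CPM in DMSO D2 (0.78 ± 0.18, edgeR adjusted p = 0.0178). That call was lost with DESeq2, without either DMSO D2 library and without TCDD D2 replicate 2 (adjusted p 0.00208 to 0.202).

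The 2 lower at D1 were the VEGF receptors KDR and FLT1, of which KDR can join neuropilin complexes. KDR had 85 and 78.1 CPM in TCDD D1 against 106 and 94.3 CPM in DMSO D1 (-0.29 ± 0.06, edgeR adjusted p = 0.0155). FLT1 had 122 and 123 CPM in TCDD D1 against 142 and 144 CPM in DMSO D1 (-0.22 ± 0.04, edgeR adjusted p = 0.0112). Both calls were lost in the fit of D1 libraries alone and without DMSO D1 replicate 1, that of KDR also without TCDD D1 replicate 2 and that of FLT1 also without DMSO D1 replicate 2 (adjusted p 3.82e-06 to 0.403 for KDR and 0.00115 to 0.0854 for FLT1). The sum of 6 endothelial markers was 13.7 to 19.3 CPM in TCDD D1 and 17.4 to 25 CPM in DMSO D1, with 0 of 4 tested called and PECAM1 and CDH5 at or near 0, and its part in these values was not tested. Of 12 tested netrin partners (13 with LRRC4C, which was too low), 1 was called with TCDD at D2 and 0 at D1, beside 2.95% and 1.2% of all genes. It was RGMA, a ligand of neogenin, with 55.6 and 61.4 CPM in TCDD D2 against 44.9 and 47.7 CPM in DMSO D2 (0.34 ± 0.06, edgeR adjusted p = 0.0016), a call lost without DMSO D2 replicate 1 or TCDD D2 replicate 2 (adjusted p 1.65e-06 to 0.068). Of 10 slit and ROBO effectors and 14 Eph and ephrin effectors, 0 were called with TCDD at either time, which is near those shares for lists of this size. At an unadjusted p under 0.05, the slit and ROBO effectors had 2 at D2 and 0 at D1, and the Eph and ephrin effectors 1 at D2 and 0 at D1.

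Between D2 and D1 the partner lists were counted in the same way, beside 33.1% of all genes higher and 32.2% lower with TCDD and 32.5% and 30.7% with DMSO, and no difference between lists was tested. Of the 20 semaphorin co-receptors and effectors, 3 were higher (15%) and 13 lower (65%) with TCDD (median log2 fold change -0.28), and 2 were higher (10%) and 17 lower (85%) with DMSO (median -0.49). Without composition scaling they were 1 higher and 15 lower with TCDD and 1 higher and 17 lower with DMSO. The cell adhesion molecule NRCAM, a neuropilin partner, fell by 0.83 with TCDD and 1.24 with DMSO, and FLT1 by 0.90 with TCDD and 1.03 with DMSO. L1CAM, another neuropilin partner, fell by 0.72 with TCDD and 0.85 with DMSO, and RRAS, a small GTPase that plexins switch off, by 1.01 with TCDD and 0.81 with DMSO. Slit and ROBO effectors were 0 higher and 6 lower of 10 (60%) with TCDD (median -0.17) and 0 higher and 7 lower (70%) with DMSO (median -0.28), and without composition scaling 9 were lower with TCDD and 10 with DMSO. Among them SRGAP1, which carries ROBO signals to small GTPases, fell by 0.61 with TCDD and 0.66 with DMSO, and the actin regulator VASP by 0.34 with TCDD and 0.43 with DMSO. GPC1, a heparan sulfate proteoglycan that binds slits, fell by 0.18 with TCDD, a call lost without TCDD D1 replicate 1 or TCDD D2 replicate 1 (adjusted p 0.000182 to 0.256), and by 0.33 with DMSO. Netrin partners were 5 higher (41.7%) and 3 lower (25%) of 12 with TCDD (median 0.25) and 4 higher and 4 lower (33.3% each) with DMSO (median 0.03, or -0.06 without composition scaling), near the shares of all genes. FLRT2, a ligand of UNC5D, rose by 1.84 with TCDD and 1.88 with DMSO, and RGMB by 1.33 with TCDD and 1.23 with DMSO. LRRC4B, a synaptic adhesion protein related to the netrin-G ligands, fell by 2.43 with TCDD and 2.41 with DMSO. Eph and ephrin effectors were 5 higher (35.7%) and 4 lower (28.6%) of 14 with TCDD (median 0.06), near those shares too, and 7 higher (50%) and 3 lower (21.4%) with DMSO (median 0.10). Without composition scaling they were 3 higher and 5 lower with TCDD (median -0.05) and 4 higher and 5 lower with DMSO (median 0.01). NGEF, the exchange factor ephexin that links EPHA4 to RhoA, fell by 1.56 with TCDD and 1.35 with DMSO. TIAM1, an activator of Rac, rose by 0.82 with TCDD and 0.74 with DMSO, and CHN1, an inactivator of Rac that acts below EPHA4, by 0.61 with TCDD and 0.53 with DMSO.

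Levels of different genes were compared as CPM per kb of exon length, with lengths from GENCODE for GRCh38 rather than the hg19 build of the counts. SEMA6A, a transmembrane semaphorin that binds plexins A2 and A4, stood highest at 71.1 CPM per kb in TCDD D2, 79.3 in DMSO D2, 71.2 in TCDD D1 and 82.6 in DMSO D1. It was followed over all 8 libraries by EPHA1 and EPHB4, with 32.9 and 37.1 CPM per kb in TCDD D2, 37 and 35 in DMSO D2, 47.7 and 34.7 in TCDD D1 and 50 and 34.4 in DMSO D1. EPHA1 lay above EPHB4 in both D1 groups and in DMSO D2, and below it in TCDD D2. SEMA4C and PLXNB2, a receptor of class 4 semaphorins, came next in that order over all libraries, at 24.8 and 32.9 CPM per kb in TCDD D2. Among A ephrins EFNA4 had 15 CPM per kb in TCDD D2 and 14.3 in DMSO D2, above EFNB2 with 11.8 in TCDD D2 and 8.32 in DMSO D2. At D1 EFNB2 stood at 2.61 CPM per kb in TCDD D1 and 2.55 in DMSO D1, below EFNA4 with 9.21 in TCDD D1 and 9.29 in DMSO D1. ROBO1 exceeded its ligand SLIT2 in every group, with 15.1 against 2.69 CPM per kb in TCDD D2 and 19.2 against 3.54 in DMSO D1. The netrin receptor DCC was low, at 0.0594 CPM per kb in TCDD D2 and 0.0241 in DMSO D1, while neogenin (NEO1) had 11.6 in TCDD D2 and 15.1 in DMSO D1.

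**Figure D4:**
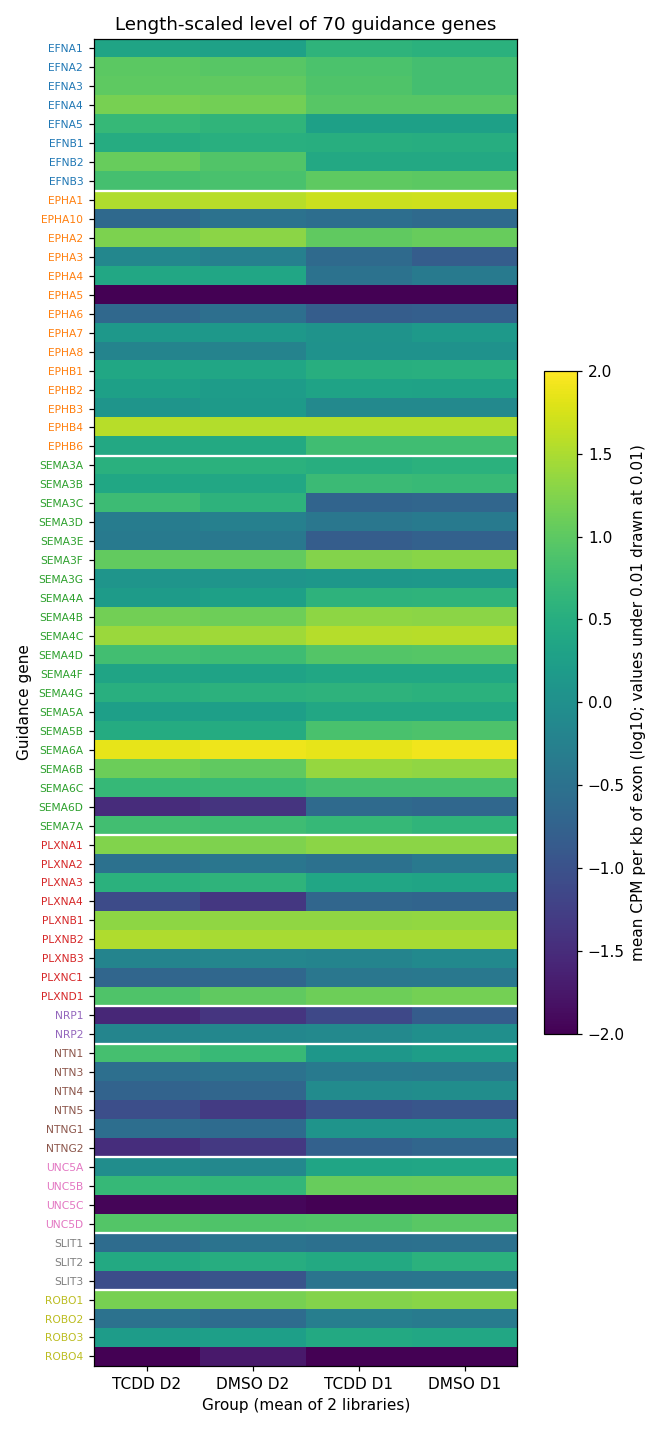
Heat map of mean CPM per kb of exon (log10 colour scale, brighter for higher, values under 0.01 drawn at 0.01) for the 70 guidance genes in TCDD D2, DMSO D2, TCDD D1 and DMSO D1, grouped by class. SEMA6A is the brightest row in all 4 groups, and EPHA5, ROBO4 and UNC5C are the darkest.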

How the data were processed

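MEL1 cells were profiled by RNA sequencing in 8 libraries, grouped by their titles. The deposited tables hold the authors' raw read counts per gene symbol, with no normalisation, as their whole-number values show. Reads were trimmed with cutadapt 1.9.1, aligned with STAR to hg19 and counted with featureCounts 1.5.1, per the submitters' processing notes. Annotation, strand setting, the version of STAR and the treatment of multi-mapping reads were not given in the sources used here, so counts of overlapping or antisense genes are uncertain. Replicates differed by more than sampling noise (chi-square per gene 3.21 to 6.59) and each counted as 1 sample.

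Genes passing edgeR's filterByExpr (minimum count 10) were fitted with TMM factors of 0.958 to 1.04 in 1 quasi-likelihood model of 4 group means in R 4.3.3 (edgeR 4.0.16, limma 3.58.1). Its F tests are two-sided, and p-values were adjusted by Benjamini-Hochberg over 17268 genes. SEs come from the F statistic, and CPM values are relative to scaled totals. The common biological coefficient of variation was 3.86%. Alternatives were DESeq2 1.42.0, other scalings and filters, single-library omissions, the compared groups alone, a replicate block and robust dispersions, the last chosen after seeing the data. Members and gene lists were chosen with earlier results of these data known. Named were all members called with TCDD, up to 10 rises and 10 falls between D2 and D1 with at least 1 CPM, the highest member of each family, the called partners and up to 3 more per partner list. Any other named gene was chosen after its values were seen. Promoters came from RefSeq (GRCh38.p14) for 59 of the 70 members. The test was run on simulated counts drawn with the common variation for every gene and with changes in well-counted genes only. That run does not cover spread that differs between genes, nor members with low counts.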

Additional observations from a re-analysis of the deposited data

Results flagged for a closer look

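The TCDD effect differed between D2 and D1 in the test of that difference for 2 of 66 tested guidance genes (3.03%), beside 0.77% of all genes. For NTN1 the log2 fold change of TCDD over DMSO was 0.39 at D2 and -0.35 at D1, a difference of 0.74 ± 0.14 (SE, edgeR adjusted p = 0.017), a call that held in 10 of 15 alternatives (adjusted p 1.12e-07 to 0.112) and was lost without DMSO D1 replicate 1, DMSO D1 replicate 2, DMSO D2 replicate 1, TCDD D1 replicate 2 or TCDD D2 replicate 2. For EFNB2 it was 0.51 at D2 and 0.03 at D1, a difference of 0.48 ± 0.11 (edgeR adjusted p = 0.0431), a call that held in 7 of 15 alternatives (adjusted p 0.000479 to 0.22) and was lost without composition scaling and without DMSO D1 replicate 1, DMSO D1 replicate 2, DMSO D2 replicate 1, DMSO D2 replicate 2, TCDD D1 replicate 1, TCDD D2 replicate 1 or TCDD D2 replicate 2. The streak and mesoderm markers summed to 311 to 349.7 CPM in TCDD D2 and 638 to 679 CPM in DMSO D2, and to 11.9 to 12.6 CPM in TCDD D1 and 12.3 to 12.6 CPM in DMSO D1. Their part in both differences was not tested.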

How the results depend on the processing

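Of 197 called results of 99 guidance, partner and other named genes, 0 changed sign under the alternatives run for them. Over the members, partners and other named genes, 133 values lost the threshold, 84 gained it and 9395 kept their side. Apart from single-library omissions, counts moved by over 1.5 times in the following. With no filter beyond 1 count, which adds genes and changes the shared variance estimate, guidance calls were 7 for TCDD at D1 and 4 for the difference of TCDD effects, and calls over all genes were 505 at D1, 908 at D2 and 468 for the difference. With only the D1 libraries, fewer samples, 0 guidance genes and 114 of all genes were called for TCDD at D1. With no composition scaling the difference of effects had 1 guidance call, and the cause was not tested. Leaving out single libraries gave 0 to 5 guidance calls (80 to 265 over all genes) for TCDD at D1, 3 to 7 (198 to 648) at D2 and 0 to 2 (29 to 275) for the difference, and 46 to 51 (9746 to 11289) for D2 against D1 with TCDD and 48 to 50 (9139 to 11248) with DMSO. An arm left with 1 library was assumed to vary like the others. TCDD at D1 gave 2 guidance calls without DMSO D1 replicate 2 and 5 without TCDD D1 replicate 1, and 0 without each of the other 6 libraries. TCDD at D2 gave 3 without DMSO D2 replicate 1 and 3 without DMSO D2 replicate 2. The lowest counts over all genes came without DMSO D1 replicate 1 at D1 (80) and without DMSO D2 replicate 1 at D2 (198) and for the difference (29). Depth limits low members, since SEs of uncalled members at D2 ran from 0.05 to 0.44, highest for SEMA6D. The replicate block left 1 guidance gene called for TCDD at D1, 6 at D2, 49 for D2 against D1 with TCDD, 50 with DMSO and 3 for the difference. Same-numbered libraries deviated together within D1 (r = 0.318 over 10804 genes, TCDD with DMSO) and within D2 (0.203). Across times r was -0.278 with TCDD and 0.0502 with DMSO. The numbers were not taken as pairs because the labels do not say that a number marks a shared culture or day. The replicate block assumed the same number effect at both times, so pairing within each time was not tested. A block over all libraries with the replicate numbers exchanged at D2, chosen after seeing the data, gave 50 guidance calls for D2 against D1 with TCDD.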
